A study of Rattus norvegicus with 8 samples.

Results

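Colonic gene expression was compared between rats fed a cocoa diet (C10) and rats fed an inulin diet (I). The diet labels put 4 rats in each group, which are 8 of the 16 rats of the series, and 19901 genes were tested. All the animals were female Wistar rats aged 6 weeks, and RNA came from a piece of the middle colon. The C10 diet contained cocoa powder, a source of polyphenols and of soluble and insoluble fiber, whereas the I diet contained inulin as its soluble fiber and no cocoa. The other 8 rats received either the standard AIN-93M diet (REF, n = 4) or a cocoa fiber diet with the same fiber but very little polyphenol (CF, n = 4). The comparison sets a whole cocoa diet against an inulin diet, and a difference between them can come from either diet. The diets also differed in their source of insoluble fiber, and the paper reports a lower final body weight in the cocoa group. The shares of these factors cannot be told apart here.

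Inulin is a fructan that colonic bacteria ferment to short-chain fatty acids. Cocoa brings flavanols, a mostly insoluble fiber and methylxanthines to the same site. The colon wall also holds a large immune compartment, in which mast cells store proteases such as chymases and carboxypeptidase, and histamine, in granules. They release them when antigen cross-links IgE on the high-affinity IgE receptor.

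The samples were hybridised on 8 arrays with 2 colours, one rat in each colour. No array held both a C10 and an I rat: the C10 rats were on arrays 1 to 4 and the I rats on arrays 5 to 8, always beside a REF or a CF rat. The diet and the set of arrays were therefore separated only through the REF and CF rats, which lay in both sets. The share of spots well above the local background was 71.7 to 76.7 % in the C10 rats and 70.5 to 77.8 % in the I rats, and no spot was saturated. All values below are log2 normalised signals, and levels of different genes are not comparable because each has its own probe.

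Some rats stood apart in tissue composition. The mean log2 signal of 11 smooth muscle genes was 10.91 in C10 rat 1, against 12.90 to 13.03 in the other C10 rats and 12.46 to 13.18 in the I rats. Genes of lymphoid follicles were high in C10 rats 1 and 3 (mean log2 signal 11.65 and 10.35) and in I rats 1 and 3 (11.92 and 11.02), against 8.60 to 8.76 in the other 4 rats. The posterior Hox genes, which mark the distal end of the gut, had their highest mean in C10 rat 4 (10.20) of all 16 rats. Follicle-rich pieces were thus equally frequent on both diets, whereas the low muscle signal and the highest Hox signal each lay in a C10 rat. The part of these differences in the results below was not tested.

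A total of 32 genes had an adjusted p below 0.05 in limma together with a change of at least 2-fold, 0.161 % of the genes tested, and all 32 were lower in the C10 group. No gene met both limits in the other direction, although 1582 genes were higher at an unadjusted p below 0.05 in limma and a rank product test called 30 genes higher. Without the fold limit, 75 genes were lower in C10 (0.377 % of the genes tested) and 43 were higher (0.216 %). All 32 genes had every C10 rat below every I rat, an arrangement that 434 genes showed (2.18 %), whereas 802 genes had every C10 rat above every I rat (4.03 %). The median log2 difference over all genes was 0.02. Of all 19901 genes 11121 were higher and 8780 lower in C10 by the fitted difference at any p. The counts of higher and lower list members below are to be read beside these. Of the 32 genes 16 had a current gene symbol.

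**Figure D1:**
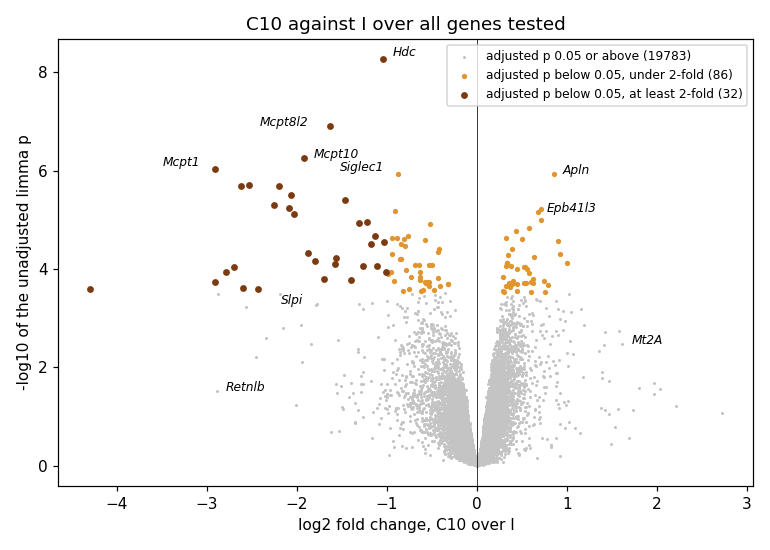
Each point is one of the 19901 genes, with the log2 fold change of C10 over I on the horizontal axis and −log10 of the unadjusted limma p on the vertical axis. The 32 dark brown points, all on the left, passed both limits, and orange points passed the adjusted p of 0.05 with a smaller change.

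For these genes the C10 mean was the lowest of all diets. Their choice for a C10 signal below that of I, in a fit to the same rats, favoured a low C10 mean and a high I mean in advance. The median log2 difference was −1.83 for C10 minus I, −1.45 for C10 minus REF and 0.38 for I minus REF. The C10 mean lay below the REF mean and below the CF mean for all 32 genes. The I mean lay above the REF mean for 28 of them and above the CF mean for 32. The C10 minus REF and I minus REF differences share the REF rats and are given only side by side.

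The largest group among these genes was that of the mast cell proteases. Of 12 members that matched a probe by current symbol 11 were tested and 8 passed both limits. All 8 were lower in the C10 rats: Mcpt1, Mcpt8, Mcpt9, Mcpt10, Mcpt4, Mcpt8l2, Cpa3 and Cma1. Members such as Mcpt8l3 and Mcpt1l4, which the study reports from these arrays, matched no probe by their current symbol. The median log2 difference of the 11 members was −1.63, against 0.02 for all genes. Vch, a chymase first described in vascular smooth muscle and not on the list, was also lower. All of these except Cpa3 are serine proteases of the chymase locus, whose genes neighbour each other on chromosome 15 in the rat assembly GRCr8. The interval from Cma1 to Mcpt10 was drawn between the outermost genes on this chromosome that passed both limits. It holds 26 annotated genes, of which 9 were tested, and 8 of the 9 passed both limits, a share that this choice of ends favoured. The other one, Mcpt3, was not well above background in any C10 rat.

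Mcpt1 showed the largest change among genes with a symbol. The transcript behind this probe was long known as that of Mcpt2, the chymase of mucosal mast cells, and RefSeq now places it under Mcpt1 with the names of both proteases, so the probe may read either. The log2 signals were 10.46, 10.14, 8.64 and 8.52 in C10 rats 1 to 4, against 12.15, 12.57, 12.47 and 12.45 in the I rats. Thus the highest C10 rat lay more than 1 log2 unit below the lowest I rat, and the C10 rats were far more spread (SD 1.0) than the I rats (SD 0.18). REF rats (11.64 to 12.41) and CF rats (11.43 to 12.30) sat close to the I rats. The fitted log2 difference was −2.91 ± 0.35 (SE, n = 4 per diet), or 7.54-fold lower, with an adjusted p of 0.00388 in limma.

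Mcpt8, Mcpt9 and Mcpt8l2 belong to the Mcpt8 family, proteases that rodent mast cells and basophils make. Mcpt8 had log2 signals of 11.69, 10.97, 10.28 and 10.12 in the C10 rats and of 12.71, 13.32, 12.99 and 12.94 in the I rats, a difference of −2.09 ± 0.29 (SE; adjusted p = 0.00843 in limma). Mcpt8l2 was at 7.25, 7.16, 6.61 and 6.52 in the C10 rats and at 8.49, 8.82, 8.49 and 8.63 in the I rats, a difference of −1.63 ± 0.17 (SE; adjusted p = 0.00123 in limma). In each of them C10 rats 3 and 4 were the lowest rats and the diets did not overlap. Mcpt9 followed with −2.03 ± 0.29 (SE; adjusted p = 0.00899 in limma).

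Mcpt10, another chymase-locus protease, had log2 signals of 8.43, 8.09, 7.49 and 7.24 in the C10 rats and of 9.57, 10.15, 9.60 and 9.87 in the I rats. The difference was −1.92 ± 0.22 (SE; adjusted p = 0.00359 in limma). Cpa3, the mast cell carboxypeptidase, was 2.96-fold lower, at 7.33 to 8.70 in the C10 rats and 8.98 to 9.96 in the I rats (adjusted p = 0.0265 in limma). Cma1, a chymase of connective tissue mast cells, was 2.33-fold lower, at 6.74 to 7.09 against 7.99 to 8.66 (adjusted p = 0.0115 in limma). Vch and Mcpt4 differed by −1.87 ± 0.32 and −1.70 ± 0.33 (SE; adjusted p = 0.0236 and 0.0409 in limma). Mcpt4 was the least stable of them, since it passed the adjusted p with only 4 of the 16 rats left out in turn. Of the 8 proteases on the list that passed both limits, 4 still did with the set of arrays as an added term (Mcpt1, Mcpt10, Mcpt8l2 and Cpa3), and 0 with array as a fixed term or with the C10 and I rats alone, where limma called no gene past both limits.

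The tryptases, which together with chymases fill the granules of connective tissue mast cells, did not pass. Tpsab1 was well above background in only 2 of 4 rats of either diet, with a log2 difference of 0.06 (95 % interval −0.08 to 0.20), and Tpsb2 differed by 0.07 (−0.15 to 0.30). Both intervals lie above the difference of each protease that passed. A probe as close to background as that of Tpsab1 can however show little of a fall, so its interval does not set it apart from them. No test compared the tryptases with the chymases directly. The signal of near-identical chymases can be shared by 1 probe, and the probe sequences were not used here.

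**Figure D2:**
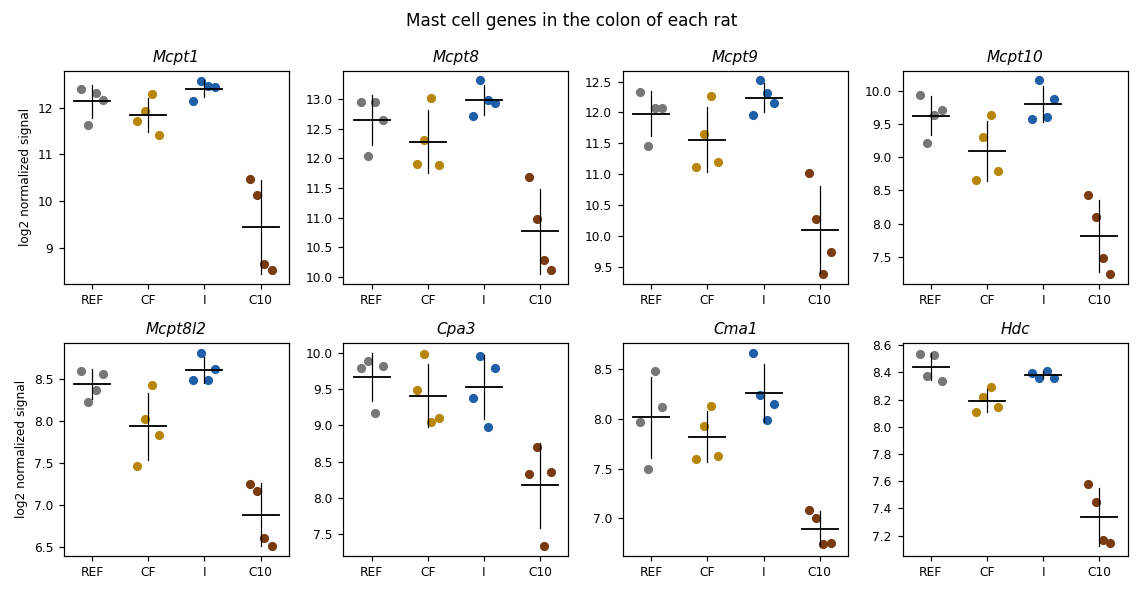
Log2 normalised signal (vertical axis) of 8 mast cell genes in each rat, by diet (horizontal axis, n = 4 rats per diet, drawn from rat 1 to rat 4); horizontal bars are means and vertical lines are SD. In each panel the 4 C10 rats lie below the 4 I rats, and for Hdc the I rats lie between 8.36 and 8.41 while the C10 rats lie between 7.15 and 7.58.

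The start regions of 6 of these genes are shown because the proteases that were lower together fall into related sequence groups. They are RefSeq sequences of build GRCr8, from 250 bases before to 50 bases after the annotated start, read 5′ to 3′ on the strand of the gene, and a matching entry existed for 14 of the 16 genes with a symbol. Capitals mark the letters GATAA, the core of the site that GATA factors bind, or TTATC, the same letters on the opposite strand.
Mcpt1, chr15:33841356-33841655, + strand: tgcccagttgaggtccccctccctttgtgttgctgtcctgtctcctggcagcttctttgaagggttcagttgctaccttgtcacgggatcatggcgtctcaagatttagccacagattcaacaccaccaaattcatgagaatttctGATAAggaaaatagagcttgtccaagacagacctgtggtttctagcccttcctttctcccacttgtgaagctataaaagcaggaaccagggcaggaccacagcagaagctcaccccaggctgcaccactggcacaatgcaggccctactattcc
Vch, chr15:33569491-33569790, + strand: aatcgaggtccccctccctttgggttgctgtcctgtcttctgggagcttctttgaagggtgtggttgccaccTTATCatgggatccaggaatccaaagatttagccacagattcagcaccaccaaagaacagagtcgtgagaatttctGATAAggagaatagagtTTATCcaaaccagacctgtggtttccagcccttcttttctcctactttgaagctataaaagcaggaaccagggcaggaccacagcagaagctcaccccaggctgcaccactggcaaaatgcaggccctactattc
Mcpt8, chr15:33769399-33769698, + strand: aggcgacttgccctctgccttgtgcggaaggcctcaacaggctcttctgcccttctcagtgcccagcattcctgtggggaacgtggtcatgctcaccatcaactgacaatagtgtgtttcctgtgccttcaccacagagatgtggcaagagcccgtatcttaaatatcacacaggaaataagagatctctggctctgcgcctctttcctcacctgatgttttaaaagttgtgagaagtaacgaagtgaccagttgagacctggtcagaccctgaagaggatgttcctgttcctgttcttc
Mcpt9, chr15:33827180-33827479, + strand: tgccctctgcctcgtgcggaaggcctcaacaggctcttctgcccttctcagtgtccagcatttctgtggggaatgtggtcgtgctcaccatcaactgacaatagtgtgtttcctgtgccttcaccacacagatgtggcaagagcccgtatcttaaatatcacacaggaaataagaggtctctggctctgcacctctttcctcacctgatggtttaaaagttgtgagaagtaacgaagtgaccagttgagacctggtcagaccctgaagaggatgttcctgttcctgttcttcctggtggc
Cma1, chr15:33390084-33390383, - strand: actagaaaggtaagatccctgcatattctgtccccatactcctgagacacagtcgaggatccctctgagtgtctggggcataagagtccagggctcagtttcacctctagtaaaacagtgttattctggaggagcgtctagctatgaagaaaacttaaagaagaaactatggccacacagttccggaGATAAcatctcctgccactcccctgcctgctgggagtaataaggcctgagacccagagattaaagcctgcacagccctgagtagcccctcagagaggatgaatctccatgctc
Cpa3, chr2:104673188-104673487, - strand: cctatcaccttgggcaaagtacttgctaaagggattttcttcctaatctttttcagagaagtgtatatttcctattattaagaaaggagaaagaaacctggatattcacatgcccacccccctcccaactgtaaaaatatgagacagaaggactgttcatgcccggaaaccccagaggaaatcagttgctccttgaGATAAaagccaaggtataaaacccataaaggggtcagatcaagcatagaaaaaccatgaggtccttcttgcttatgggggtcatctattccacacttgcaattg
Mcpt1 and Vch were 86 % identical over this window in a global alignment, and Mcpt8 and Mcpt9 91.9 %, whereas Mcpt1 and Mcpt8 were 54.2 % identical, close to the 49.9 % of the unrelated pair Mcpt1 and Cpa3. GATAA occurred on either strand in 5 of the 14 windows (35.7 %) and in 17.4 % of the windows of the 9716 tested genes with an entry, or in 26.5 % of all 33469 windows. It was in the windows of Mcpt1, Vch, Mcpt4, Cma1 and Cpa3 and not in those of Mcpt8, Mcpt9, Mcpt8l2 or Hdc. The Mcpt4 window was 75.4 % identical to that of Mcpt1 and 80.3 % to that of Vch, so the windows of Mcpt1, Vch and Mcpt4 are not separate occurrences. TATAAA was also found in 5 of the 14 windows, again with Mcpt1, Vch and Mcpt4 among them, in 8.26 % of the windows of tested genes and in 14.2 % of all windows. Such counts describe only these letters in these windows.

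Of 13 genes of mast cell identity other than the proteases, 4 were lower in the C10 rats at an adjusted p below 0.05 and 1 passed both limits. The median log2 difference of the 13 was −0.30, and 12 had a lower mean in the C10 rats. The gene past both limits was Hdc, the enzyme that makes histamine, and it had the smallest p of all genes. Its log2 signals were 7.58, 7.45, 7.17 and 7.15 in the C10 rats and 8.40, 8.36, 8.41 and 8.36 in the I rats, a difference of −1.04 ± 0.08 (SE; adjusted p = 0.000107 in limma). REF rats were at 8.34 to 8.53 and CF rats at 8.11 to 8.30, so each C10 rat lay below all the other 12 rats.

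The subunits of the high-affinity IgE receptor were each lower in the C10 rats. Fcer1a, the IgE-binding chain, was at 6.17 to 6.48 in the C10 rats and 6.73 to 7.21 in the I rats, a difference of −0.63 ± 0.12 (SE; adjusted p = 0.0388 in limma). Ms4a2, the signal-amplifying beta chain, was at 6.46 to 6.67 against 7.03 to 7.48, a difference of −0.80 ± 0.13 (SE; adjusted p = 0.0166 in limma). These probes were dim: Fcer1a was well above background in 2 of 4 C10 rats and Ms4a2 in 3 of 4, so their C10 levels lie near the background. Fcer1g, the gamma chain that several Fc receptors of myeloid cells share, differed by −0.79 ± 0.15 (SE; adjusted p = 0.0319 in limma).

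Hpgds, the prostaglandin D synthase of mast cells, had a log2 difference of −0.59 with no overlap between diets and an adjusted p of 0.0569 in limma. Kit, the stem cell factor receptor that mast cells and the pacemaker cells of gut muscle both carry, had a log2 difference of −0.22 (95 % interval −0.58 to 0.14). In bulk tissue a smaller number of mast cells and less of these transcripts per cell cannot be told apart. The mean log2 signal of the protease list was 7.5 to 8.22 in the C10 rats, 9.11 to 9.39 in the I rats, 8.80 to 9.29 in the REF rats and 8.58 to 9.19 in the CF rats.

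Genes of macrophages and monocytes formed the next group. Of 15 tested, 13 had a lower mean in the C10 rats and 3 passed the adjusted p, with a median log2 difference of −0.55. Siglec1, a sialic acid receptor of resident macrophages, was at 6.66, 6.90, 6.84 and 6.75 in the C10 rats and at 7.77, 7.71, 7.59 and 7.65 in the I rats. The diets were clearly apart with little spread in either, and the difference was −0.88 ± 0.11 (SE; adjusted p = 0.00388 in limma). Fcgr3a, a low-affinity IgG receptor of macrophages and natural killer cells, was at 6.46 to 6.93 against 7.20 to 7.82, a difference of −0.91 ± 0.13 (SE; adjusted p = 0.00847 in limma).

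The third of these genes was Ccl12, a chemokine that attracts monocytes, which was 2.26-fold lower (6.29 to 6.79 in the C10 rats, 7.19 to 7.80 in the I rats, adjusted p = 0.018 in limma). Ccl11, or eotaxin, which attracts eosinophils, was 2.02-fold lower, at 11.51, 11.72, 11.19 and 11.03 in the C10 rats and 12.49, 12.19, 12.28 and 12.85 in the I rats (adjusted p = 0.0332 in limma). It was also the only gene of 11 on the list for type 2 immunity and tuft cells to pass, and that list had a median log2 difference of −0.08. The complement genes C1qa, C1qb and C1qc had log2 differences of −0.54, −0.61 and −0.57, with adjusted p of 0.151, 0.114 and 0.198 in limma.

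Single genes outside the lists were also lower. Cd52, a surface glycoprotein of leukocytes, was 2.04-fold lower, at 6.94 to 7.44 in the C10 rats and 7.84 to 8.75 in the I rats (adjusted p = 0.0173 in limma). Slfn4, an interferon-responsive gene of myeloid cells, was 2.15-fold lower (adjusted p = 0.0289 in limma), with 3 of 4 C10 rats well above background, and a second Slfn4 probe gave a log2 difference of −0.67. Among genes that passed below the 2-fold limit and were picked after their values were seen, Nkg7, a granule protein of cytotoxic cells, differed by −0.94 and Aif1, a macrophage protein, by −0.82. Slamf9, a receptor of myeloid cells, differed by −0.89 and Ddc, the decarboxylase that makes dopamine and serotonin, by −0.84.

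The lymphocyte lists had medians near 0. The B cell list had 4 members lower and 11 higher of 15, with a median log2 difference of 0.07, and the T cell list had 9 lower and 5 higher of 14, with a median of −0.03. None of them passed, and without C10 rat 1 the medians were −0.28 and −0.33, against 0.29 and 0.28 without C10 rat 4. Both lists ranged widely within each diet with the follicle content of the pieces: the mean log2 signal of the B cell genes was 9.43, 7.18, 8.55 and 7.37 in the C10 rats and 9.58, 7.22, 9.11 and 7.42 in the I rats. The 9 genes of MHC class II were each lower on average, with a median of −0.43 (−0.06 without C10 rat 4), and none passed.

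Plasma cell genes were mostly lower but rarely passed. Of 12 tested, 11 had a lower mean in the C10 rats, with a median log2 difference of −0.73 (−0.36 without C10 rat 4). Derl3, a protein of the degradation pathway in the endoplasmic reticulum that antibody-secreting cells express strongly, was the one that passed. It was at 8.17, 7.82, 7.82 and 7.47 in the C10 rats and at 9.62, 9.43, 8.51 and 9.29 in the I rats, which is 2.40-fold lower (adjusted p = 0.0289 in limma), whereas a second probe of the gene gave a log2 difference of −0.40. Tnfrsf17, the survival receptor BCMA, had a difference of −1.79 (adjusted p = 0.0683 in limma), and Mzb1, an immunoglobulin assembly chaperone, one of −1.54 (adjusted p = 0.138 in limma). Ccr10, the receptor that brings IgA-secreting cells to the colon, had a difference of −1.16 with no overlap (adjusted p = 0.0654 in limma).

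These plasma cell values differed by the rats used. Through the arrays shared with REF rats the median log2 difference of the list was −0.33, and through those shared with CF rats it was −1.08. Ccl28, the epithelial ligand of Ccr10, was in contrast higher in the C10 rats, at 10.67 to 11.01 against 10.14 to 10.55, a difference of 0.58 ± 0.11 (SE; adjusted p = 0.0346 in limma). The C10 rats were however close to the REF rats for this gene (C10 minus REF 0.10), and the I rats were lower (I minus REF −0.47).

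Of the resistin-like genes, secreted proteins of mucosa and myeloid cells, Retnlg was 4.18-fold lower. It was at 8.84, 10.57, 9.20 and 9.55 in the C10 rats and 12.00, 11.35, 11.68 and 11.71 in the I rats, with the REF rats between 10.89 and 11.47 (adjusted p = 0.00636 in limma). Retnlb, a goblet cell product with antibacterial activity, had a larger difference of −2.89 ± 1.2 (SE) that did not pass (adjusted p = 0.331 in limma). Its signals were 12.93, 12.79, 9.88 and 12.69 in the C10 rats and 16.21, 12.26, 16.41 and 15.84 in the I rats, so that I rat 2 lay among the C10 rats. Retnla was at 8.26 to 10.28 against 9.57 to 13.09, again with I rat 2 lowest of its group (adjusted p = 0.405 in limma). The posterior Hox genes were also lower on average in I rat 2 (8.51) than in the other I rats (8.76 to 9.02). Among the C10 rats Retnlb was lowest in rat 3 (9.88), whose posterior Hox mean of 9.20 was above that of C10 rat 1 (8.89). The part of the posterior Hox genes was not tested.

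**Figure D3:**
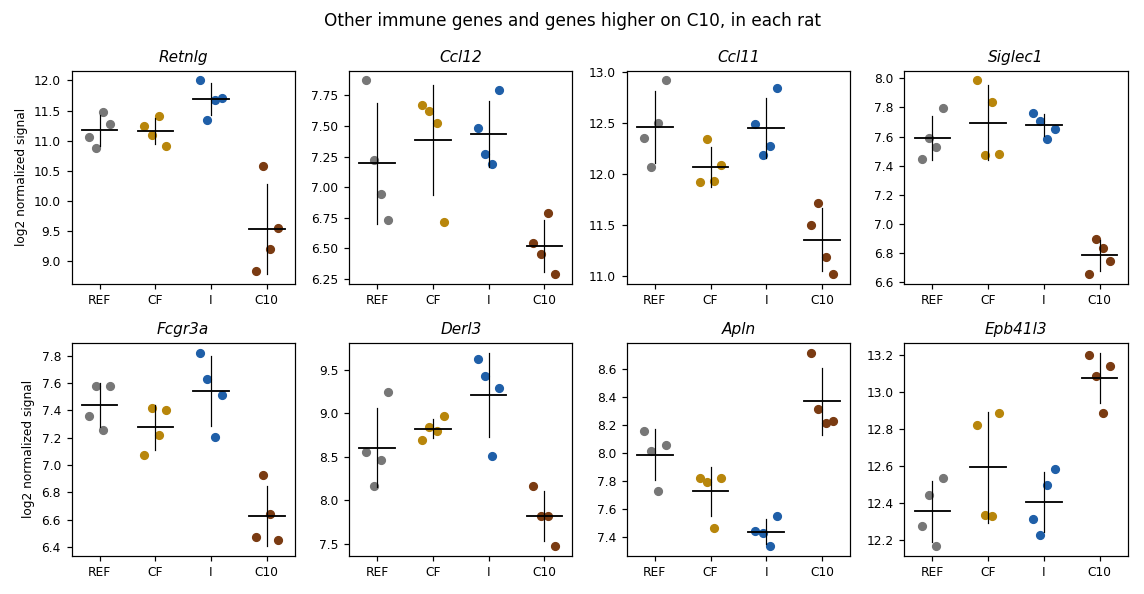
Log2 normalised signal (vertical axis) in each rat, by diet (horizontal axis, n = 4 rats per diet), for 6 immune genes that were lower and 2 genes that were higher on C10 than on I; horizontal bars are means and vertical lines are SD. The C10 and I rats do not overlap in any panel, and for Apln and Epb41l3 the C10 rats lie above the I rats.

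Other proteins that pass to the gut surface gave differences with wide errors. Slpi, a secreted inhibitor of leukocyte proteases, was at 9.41 to 11.41 in the C10 rats and 11.78 to 13.04 in the I rats, with a difference of −1.77 and an adjusted p of 0.0662 in limma. Nox1, the superoxide-producing oxidase of the colon epithelium, was at 6.67 to 7.17 against 7.44 to 8.37, with a difference of −1.31 and an adjusted p of 0.0664 in limma. Neither overlapped between the diets. The list of secreted defence genes as a whole had a median log2 difference of −0.04.

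Several metabolic genes were lower by less than 2-fold. Me1, the malic enzyme that supplies NADPH for fatty acid synthesis, lay just outside the limit with −0.99 ± 0.19 (SE; adjusted p = 0.0349 in limma), although I rat 1 (11.01) was below C10 rat 3 (11.38). Gsta3, a glutathione transferase, differed by −0.95 ± 0.16 with no overlap (SE; adjusted p = 0.0236 in limma). Slc39a4, the zinc importer of the gut epithelium, differed by −0.60 ± 0.12 (SE; adjusted p = 0.0486 in limma), and kept an adjusted p below 0.05 with only 1 of the 16 rats left out in turn. Each was the only member of its list to pass: of 10 genes of fatty acid synthesis 7 had a lower mean, of 22 genes of xenobiotic and polyphenol metabolism 11, and of 12 genes of metal handling 5.

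Tlr11, a Toll-like receptor of rodents for protozoal and bacterial proteins, was not well above background in any C10 rat and was at 6.40 to 6.76 in the I rats, 3 of which were above it. Its C10 mean was at least 1.39-fold below its I mean, a bound on the group means that leaves out their error. Tlr11 had an adjusted p of 0.0404 in limma and was the only one of 13 Toll-like receptor genes tested to pass. Ckmt2, a muscle creatine kinase, was not well above background in any C10 rat. By the same bound its C10 mean was at least 1.26-fold below its I mean (adjusted p = 0.0409 in limma). The muscle lists leaned the same way with no member passing: 11 of 11 smooth muscle genes had a lower mean, with a median of −0.37, and 15 of 17 striated muscle genes, with a median of −0.46. The smooth muscle median rested on C10 rat 1, which had the least signal of these genes: it was 0.0071 without that rat, and −1.25 through REF against −0.0079 through CF. The striated muscle median without that rat was −0.34.

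The 43 genes that were higher in the C10 rats at an adjusted p below 0.05 had log2 differences from 0.29 to 1.0, with a median of 0.52. Of these 39 had no overlap between the diets. Their median was 0.34 for C10 minus REF and −0.14 for I minus REF, and the I mean lay below the REF mean for 42 of the 43. The C10 mean lay above the REF mean for all 43, so that for 42 genes the REF mean lay between those of the diets compared. The choice of these genes for a difference between the same diets favoured this order in advance.

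Apln, the precursor of apelin, a peptide of blood vessels and gut epithelium, had the smallest p among them. It was at 8.72, 8.31, 8.22 and 8.23 in the C10 rats and 7.45, 7.43, 7.34 and 7.55 in the I rats, a difference of 0.85 ± 0.10 (SE; adjusted p = 0.00388 in limma), with REF rats from 7.73 to 8.16. Epb41l3, a protein of the membrane skeleton, was at 13.20, 13.08, 12.88 and 13.14 in the C10 rats and 12.31, 12.23, 12.49 and 12.58 in the I rats, and a second probe gave the same difference of 0.68. In both genes the lowest C10 rat was above the highest I rat. St6galnac2, a sialyltransferase that acts on mucin-type glycans, differed by 0.71 ± 0.11 (SE; adjusted p = 0.0113 in limma).

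C13h1orf115 was the gene nearest to the fold limit in this direction, with 1.0 ± 0.18 (SE; adjusted p = 0.0289 in limma), at 10.02 to 10.78 in the C10 rats and 9.24 to 9.52 in the I rats. Pbld1 differed by 0.91 ± 0.15 (SE; adjusted p = 0.0169 in limma). Bmp7, a growth factor of the BMP family, was at 9.07 to 9.92 against 8.80 to 8.98, a difference of 0.64 ± 0.11 (SE; adjusted p = 0.0256 in limma). Nrm, a protein of the inner nuclear membrane, and Lypd3, a surface protein of squamous and glandular epithelium, differed by 0.58 and 0.50.

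Positive differences larger than these did not pass. The largest of all genes was that of Sftpd, surfactant protein D, at 2.72 ± 1.47 (SE; adjusted p = 0.459 in limma), with overlap between the diets (14.08 to 16.04 in the C10 rats, 9.47 to 14.93 in the I rats). The genes that follow had no overlap and an unadjusted p below 0.05. Mt1 and Mt2A, the metallothioneins that bind zinc and copper, were at 16.39 to 17.14 and 14.69 to 15.70 in the C10 rats, and at 14.31 to 16.29 and 11.85 to 14.66 in the I rats. Neither overlapped between the diets, but for Mt2A I rats 1 and 3 (11.96 and 11.85) lay well below I rats 2 and 4 (14.66 and 13.97), and the differences of 1.42 and 1.62 had adjusted p of 0.119 and 0.149 in limma. Pdzk1ip1, a small membrane protein of absorptive epithelium, had a difference of 1.58 ± 0.41 (SE; adjusted p = 0.119 in limma), at 11.07 to 12.73 against 10.31 to 10.51. Chst5, an intestinal sulfotransferase, had one of 1.80 (adjusted p = 0.317 in limma). Rec114, a meiotic gene, was not well above background in any I rat. Its C10 mean was at least 1.91-fold above its I mean, a bound on the group means that leaves out their error (adjusted p = 0.197 in limma). With 1 rat left out in turn its fitted log2 difference ranged from 0.59 to 1.11.

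Epithelial uptake genes also had positive medians, without passing. Of 11 peptide uptake genes 8 had a higher mean in the C10 rats, with a median of 0.24, where 11121 of all 19901 genes were higher. Mep1b, a brush border protease subunit, was at 13.76 to 14.41 in the C10 rats and 13.08 to 13.51 in the I rats (difference 0.77, adjusted p = 0.0735 in limma). Slc15a1, the peptide transporter, was at 7.97 to 10.64 against 7.16 to 8.43 (difference 1.47, adjusted p = 0.283 in limma). Of 14 genes of sodium and potassium transport 11 had a higher mean, with a median of 0.31. Scnn1g, the gamma subunit of the epithelial sodium channel, was at 6.66, 7.13 and 6.76 in C10 rats 1 to 3 and at 10.67 in C10 rat 4, against 6.65 to 7.10 in the I rats, and the difference of 0.93 turned to −0.030 without C10 rat 4.

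The list for uptake and use of short-chain fatty acids, which fermentation of fiber yields, had a median close to that of all genes. The 16 genes of short-chain fatty acid uptake and ketogenesis had 7 members lower and 9 higher, with a median log2 difference of 0.01. The 16 genes of sterol synthesis had a median of −0.35 with 14 lower, the 16 genes of tight junctions one of 0.10, the 9 goblet cell genes one of −0.25 and the 11 colonocyte genes one of −0.13. None of these genes passed. The 16 proliferation genes had 15 members higher with a median of 0.16, and the 8 red cell genes had 8 higher with a median of 0.19, which turned to −0.09 with array or array set as a fixed term.

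**Figure D4:**
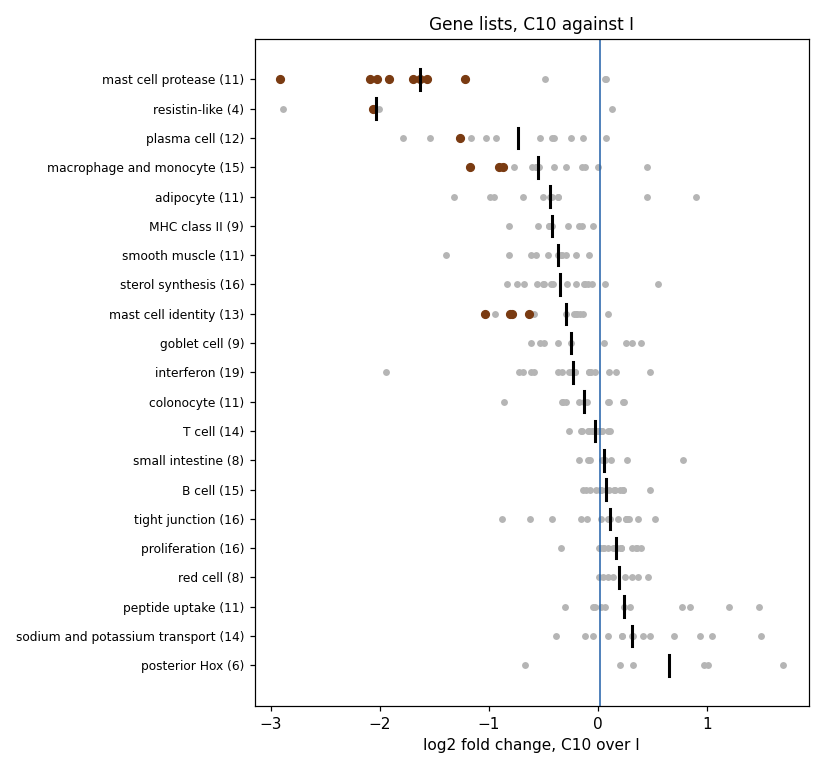
Log2 fold change of C10 over I (horizontal axis) for the tested genes of 21 lists (vertical axis, number of genes in parentheses); brown points have an adjusted p below 0.05, grey points do not, black bars are list medians and the blue line is the median of all genes, 0.02. The mast cell proteases have 8 brown points and a median of −1.63, and 16 of the lists drawn have no brown point. The 21 lists were picked from 41, and some lists not drawn, such as Toll-like receptor and metal handling, also hold a gene past the adjusted p.

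Some of the genes that the study discusses by name were looked up in C10 against I. Those named here were chosen by the study on the same rats, so they are no independent evidence of a direction. Tac4, a tachykinin, was at 6.67 to 7.69 in the C10 rats and 7.60 to 9.10 in the I rats (difference −1.5, adjusted p = 0.309 in limma). Its C10 minus REF difference was −2.34 and its I minus REF difference −0.84. Scgb1a1, a secretoglobin of mucosal secretions, was at 8.19 to 9.02 in 3 C10 rats and at 12.63 in C10 rat 4, against 6.73 to 9.0 in the I rats (adjusted p = 0.291 in limma).

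The within-array values allowed the comparison to be made along 2 paths that share no rat and no array. The REF path used C10 rats 1 and 2 and I rats 3 and 4, each against the REF rat on its array. The CF path used C10 rats 3 and 4 and I rats 1 and 2, each against its CF rat. All 32 genes had a lower value in C10 by both paths, which their choice from a fit to the same rats favoured in advance, with a median log2 difference of −1.13 through REF and −2.32 through CF. The difference was larger through CF in 31 of the 32, the exception being Ccl12 (−1.70 through REF, −1.36 through CF). It was at least 2-fold in 18 genes through REF and in 32 through CF. Over all 19901 genes the values of both paths had a Pearson r of 0.23 and a Spearman rho of 0.19, across genes, which are not independent replicates. Mcpt1 was at −1.93 and −3.74 along these paths, Hdc at −0.89 and −1.17, and Derl3 at −0.42 and −1.76.

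**Figure D5:**
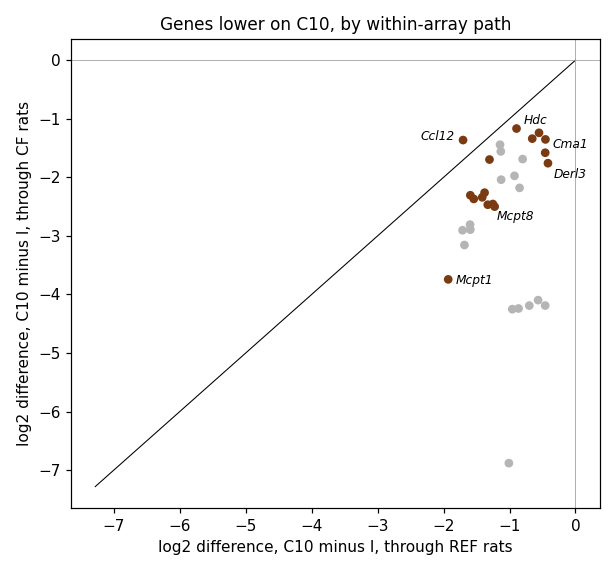
Log2 difference of C10 minus I through the arrays shared with REF rats (horizontal axis) and through those shared with CF rats (vertical axis) for the 32 genes lower on C10; brown points have a gene symbol, grey points do not, and the line marks equal values. All points lie below 0 on both axes, and 31 lie below the line.

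The larger values through CF went with the rats used: C10 rat 4 had the lowest signal of all 16 rats in 23 of the 32 genes, C10 rat 3 in 5, C10 rat 1 in 3 and C10 rat 2 in 1. The highest signal lay in I rat 2 in 9 genes, in I rat 4 in 6, in I rat 1 in 5 and in I rat 3 in 0. In the remaining genes it lay in a REF or CF rat. Without C10 rat 4, 25 genes passed both limits, 17 of them among the 32, and 7 of the 8 mast cell proteases were still called, whereas without I rat 2 it was 5 of the 8 (not Mcpt4, Cma1 or Cpa3). Without C10 rat 1 it was 61 genes (51 lower and 10 higher), with 31 of the 32 and 8 of the 8 proteases. Mcpt1, Mcpt8, Mcpt9, Mcpt10, Mcpt8l2 and Retnlg were among the 11 genes called whichever of the 16 rats was left out. Over these fits the log2 difference of Mcpt1 ranged from −3.29 to −2.57 and that of Hdc from −1.12 to −0.98. Other calls depended on single rats. The adjusted p stayed below 0.05 in 3 of the 16 fits for Ckmt2, in 5 for Fcer1a, Fcer1g and Aif1, and in 7 for Ccl11, Ccl28, Me1 and Tlr11.

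Genes without a current symbol made up the other 16 of the 32. The largest difference of all belonged to a transcript with the identifier ENSRNOT00000066209, at −4.30 ± 0.88 (SE; adjusted p = 0.0467 in limma). Its log2 signals were 12.14, 8.12, 9.39 and 9.23 in the C10 rats and 16.29, 14.91, 13.34 and 12.54 in the I rats. The difference was −1.01 through REF and −6.88 through CF, so its size rested mostly on the latter rats. The transcript ENSRNOT00000051796 was at 7.05 to 10.10 against 10.88 to 12.32, a difference of −2.91 ± 0.58 (SE; adjusted p = 0.0409 in limma), with −0.86 through REF and −4.24 through CF. With 1 rat left out in turn, the first kept an adjusted p below 0.05 in 5 of 16 fits and the second in 3.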

How the data were processed

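Total RNA of 16 rats was labelled with Cy3 or Cy5 and hybridised to 8 Agilent rat arrays. The authors extracted the spot intensities from the scans with Agilent Feature Extraction 10.7.3.1. They deposited the raw intensities of 62976 spots per array, of which the spot and local background medians were used. A table of 8 columns of normalised log ratios was not used, because its columns could not be tied to arrays, and columns of processed intensities served in 1 alternative. The methods mention dye swaps, but the labels give each rat 1 array and 1 dye.

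Background was corrected by normexp (offset 50), followed by spatial loess (span 0.4), intensity loess (span 0.3) and Aquantile scaling, and control and outlier spots were left out. The signals of each dye gave 16 channels. Probes well above background in at least 4 of 16 rats were kept (22539 probes), and the brightest probe represented a gene. Of 21327 probes with an mRNA accession 18005 matched a current RefSeq symbol. limma 3.58.1 (R 4.3.3) was fitted to all 16 rats with diet and dye as terms and array as a random block (correlation 0.417), and p-values were adjusted by Benjamini-Hochberg over 19901 genes. The number of rats limits precision: the smallest two-sided p that an exact permutation test of 4 against 4 rats allows is 0.0286, which every gene without overlap reaches.

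The genes described are those past both limits (up to 30 by size), the 10 largest rises without overlap at an unadjusted p below 0.05, the 10 smallest adjusted p in each direction, members of 41 lists, genes named in the study's text, and at most 2 transcripts without a symbol per direction. The members and lists were chosen with earlier results of these data known. No set test was made.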

Additional observations from a re-analysis of the deposited data

Results flagged for a closer look

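Among 86 genes screened in 172 groups of 4 rats, 7 groups held a rat whose gap to its nearest neighbour took more of the range of the group than Dixon's 95 % critical value, a limit that chance passes in about 1 of 20 groups. Scnn1g, the epithelial sodium channel subunit, was at 10.67 in C10 rat 4, whose nearest neighbour was at 7.13. Retnlb was at 9.88 in C10 rat 3, with the next C10 rat at 12.69, and at 12.26 in I rat 2, with the next I rat at 15.84. Ccr10 was at 7.30 in I rat 3 and Tlr11 at 6.40 in I rat 2, each the lowest of its group. C1qc was lowest in I rat 3 with 11.05, and Cd68, a lysosomal protein of macrophages, was highest in I rat 1 with 10.22. No cause was tested for any of these.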

How the results depend on the processing

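The 32 genes past both limits became 56 (52 lower) with normexp without an offset, 59 (53 lower) with the processed intensities of Feature Extraction and 112 (82 lower) with the rank product. With the set of arrays as an added term 13 remained, 10 of them among the 32, including Mcpt1, Mcpt10, Mcpt8l2, Cpa3, Hdc and Ccl12. With array as a fixed term the count was 0 in limma (1512 genes at an unadjusted p below 0.05), and with the C10 and I rats alone it was also 0 (2419 genes). Leaving out 1 rat lowered the count to 14 when it was I rat 2 and raised it to 61 when it was C10 rat 1, and gave 17 without I rat 4 and 20 without CF rat 1. The 118 genes past the adjusted p alone became 65 without the dye term, 20 with the set of arrays, 0 with array fixed and 2 with the C10 and I rats alone. They fell to 22 when I rat 2 was left out and rose to 163 when C10 rat 1 was, with 34 without I rat 4, 44 without I rat 3, 51 without CF rat 1, 62 without CF rat 4, 70 without REF rat 2, 73 without I rat 1 and 76 without C10 rat 3. The other settings kept both counts within 1.5 times. The fixed array term and the smaller sets use fewer comparisons between rats, and the C10 and I rats lay on different sets of arrays. The cause of these changes in the counts was not tested.

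For 86 single genes 2408 values were computed. Of these 1981 kept their direction and their side of the threshold, 399 lost the call, 27 gained it and 1 changed sign: Scnn1g was at −0.030 without C10 rat 4, within a range of −0.030 to 1.5 over the rats left out. For the lists 1127 of 1148 medians moved by less than the spread between rats. Most of the other 21 moved without an offset, with the processed intensities or with array or array set as a fixed term. Under these 4 settings in that order, mast cell identity was at −0.52, −0.80, −0.42 and −0.42, and gastric-type genes at −0.72, −1.23, −0.65 and −0.65, besides −0.03 without a filter. Mast cell identity was also at −0.46 without C10 rat 1 and −0.41 without C10 rat 3. The mast cell proteases were at −2.11 without the offset and −2.17 with the processed intensities, which also gave plasma cell −1.39, striated muscle −0.92, anterior Hox −0.35 and prostanoid −0.26. With array or array set fixed, IgA transport turned to 0.06 and red cell to −0.09. No paired analysis was possible because the C10 and I rats came from different animals and shared no array.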

Other observations

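None of the genes on the remaining lists passed the adjusted p, with the exception of Ccl28 on the list for IgA transport, which had 4 members lower and 2 higher and a median log2 difference of −0.04, which turned to 0.06 with array or array set as a fixed term. Lists of hormone and nerve signalling had negative medians. The 12 enteroendocrine genes had a median of −0.32 with 8 lower, and the 11 neuropeptide genes one of −0.51 with 9 lower (−0.11 without C10 rat 1). Of all 19901 genes 8780 were lower. Tph1, which makes serotonin in enterochromaffin cells, was at 8.56 to 8.99 in the C10 rats and 9.27 to 10.32 in the I rats, a difference of −1.32 (adjusted p = 0.16 in limma), whereas a second probe gave −0.64. The 17 genes of complement and coagulation had a median of −0.42 with 14 lower, and the complement-restraining Cd55 was at 9.61 to 10.27 against 10.40 to 11.28 (adjusted p = 0.232 in limma). The 19 interferon genes had a median of −0.23 with 16 lower.

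The 11 adipocyte genes had a median of −0.44 and the 14 genes of lipid absorption one of −0.09. The 12 genes of chloride transport and guanylin had a median of −0.24, the 19 oxidase and antioxidant genes one of −0.14 and the 14 prostanoid and leukotriene genes one of −0.12. The 17 immediate-early genes had a median of 0.13 with 13 higher. Markers of other gut regions gave medians of −0.39 for 6 gastric-type genes, 0.05 for 8 small intestine genes, −0.16 for 3 anterior Hox genes and 0.64 for 6 posterior Hox genes. Hoxb13, a posterior Hox gene, was at 13.44 to 14.89 in the C10 rats and at 9.96 to 13.78 in the I rats, and lay at 6.60 in REF rat 4, so rats of 1 diet differed widely in this marker.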
